A study of Mus musculus with 8 samples.

Results

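A set of transcriptional regulators tied to muscle fibre type was followed in nuclei isolated from the gastrocnemius of mice, which is the calf muscle and is rich in fast fibres. They were Six4, Eya1, Tbx15, Maf, Mafa, Sox6, Nfatc1 and Nfix, that is 8 of the 21107 genes used, listed by name with earlier results of these data known. Their raw UMIs (tags that let each captured RNA molecule be counted once) were summed in each of the 8 libraries and by the dominant myosin heavy chain of the nucleus. All mice were wild type by the labels, which name the tissue as muscle, and the muscle taken and the ages are those of the study's methods. The groups were Old (20 months), Young (3 months), Running and Sedentary (both 11 months at the start of a 2 month period, in which only Running trained), each with 2 libraries. Replicate 1 of each group was a 10x Genomics library and replicate 2 came from another droplet system, called the second set here. Nothing in the sources used here says that the libraries came from separate animals, so p-values measure only the spread between these libraries.

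A muscle fibre is a syncytium whose nuclei transcribe mainly the myosin of their fibre type: Myh7 in slow fibres, Myh2 in fast oxidative (IIa), Myh1 in intermediate fast (IIx) and Myh4 in the fastest glycolytic (IIb) fibres. The homeodomain protein Six4 and its cofactor Eya1 belong to families that act together on fast muscle genes, Tbx15 is a T-box factor of glycolytic fibres, and the large Maf proteins Maf and Mafa are known for driving the IIb programme. Sox6 represses slow fibre genes, Nfatc1 carries calcineurin signals set by nerve activity, and Nfix is a nuclear factor I protein that takes part in the change from embryonic to fetal muscle gene expression.

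The promoters of the 4 myosins that define the classes are shown because these genes are the readout by which the regulators were sorted. Each is a RefSeq window on GRCm38.p6 from 250 bases before to 50 bases after the start, read 5′ to 3′ on the strand of the gene. Capitals mark the 20 base run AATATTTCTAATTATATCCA, the longest run shared by the 3 fast myosins, and each match to the nuclear factor I motif TTGGCA on either strand; both were picked for display after the matches had been seen.
Myh4, chr11:67237562-67237861 (+): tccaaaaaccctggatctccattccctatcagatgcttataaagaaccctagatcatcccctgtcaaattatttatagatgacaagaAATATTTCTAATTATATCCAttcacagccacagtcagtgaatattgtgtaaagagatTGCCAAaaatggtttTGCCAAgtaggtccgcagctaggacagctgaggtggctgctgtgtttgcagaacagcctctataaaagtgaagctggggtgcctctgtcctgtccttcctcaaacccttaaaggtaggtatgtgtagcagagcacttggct
Myh1, chr11:67199852-67200151 (+): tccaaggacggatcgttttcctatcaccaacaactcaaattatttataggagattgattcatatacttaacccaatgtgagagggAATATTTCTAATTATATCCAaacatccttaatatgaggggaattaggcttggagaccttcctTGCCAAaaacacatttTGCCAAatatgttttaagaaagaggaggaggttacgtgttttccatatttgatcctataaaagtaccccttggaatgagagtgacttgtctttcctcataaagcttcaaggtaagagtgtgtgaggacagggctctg
Myh2, chr11:67170777-67171076 (+): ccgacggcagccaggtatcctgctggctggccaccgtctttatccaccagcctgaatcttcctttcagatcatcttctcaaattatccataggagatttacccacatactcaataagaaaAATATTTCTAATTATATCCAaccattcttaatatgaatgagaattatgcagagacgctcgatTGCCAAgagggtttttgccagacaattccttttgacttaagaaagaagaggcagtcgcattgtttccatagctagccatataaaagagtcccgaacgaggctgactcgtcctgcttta
Myh7, chr14:54994577-54994876 (-): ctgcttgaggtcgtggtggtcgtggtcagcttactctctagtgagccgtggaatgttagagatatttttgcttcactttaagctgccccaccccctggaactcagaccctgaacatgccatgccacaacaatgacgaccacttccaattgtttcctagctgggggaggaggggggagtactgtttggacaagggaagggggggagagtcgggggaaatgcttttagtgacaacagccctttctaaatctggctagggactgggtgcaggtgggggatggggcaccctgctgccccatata

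The shared run began 163 bases before the start in Myh4, 165 in Myh1 and 130 in Myh2, and it was not in the Myh7 window shown. Myh7 had 2 windows, and the values given for it are of the window shown alone. The motif TTGGCA had 2 matches in Myh4, 2 in Myh1, 1 in Myh2 and 0 in Myh7, and 14.1% of the 32851 windows held it. The Sox core ACAAT had 1 match in Myh4, 2 in Myh2, 2 in Myh7 and 0 in Myh1, and 31.0% of the windows held it. The Maf motif TGCTGAC (in 4.67% of windows) and the T-box motif AGGTGTGA (in 1.28%) were in none of these 4 windows. The NFAT core GGAAAA had 2 matches in Myh1 and 0 in the other 3, and 23.4% of the windows held it. Both strands were searched and matches could overlap other motifs. A match is a stretch of letters and no site of binding was measured.

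Among the regulators, RefSeq windows were found here for Six4, Sox6 and Nfix. Six4 is shown because 1 of its 2 windows held MEF3 (TCAGGTTTC), a motif known to be bound by proteins of its own family, which 0.429% of the windows held, on the opposite strand and beginning 99 bases before the start. Capitals mark it, and the window was picked for this match.
Six4, chr12:73113196-73113495 (-): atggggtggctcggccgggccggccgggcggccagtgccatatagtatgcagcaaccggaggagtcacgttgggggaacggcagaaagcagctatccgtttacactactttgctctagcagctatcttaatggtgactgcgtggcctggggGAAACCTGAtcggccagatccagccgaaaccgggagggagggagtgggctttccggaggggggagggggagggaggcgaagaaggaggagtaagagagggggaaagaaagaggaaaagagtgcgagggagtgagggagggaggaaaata

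The 8 matrices held 65280 nuclei, of which 64803 were retained, with 23390969 to 44454427 UMIs in the 10x libraries and 4839878 to 9278034 in the second set. A nucleus was given a dominant myosin when it had at least 5 UMIs of the 4 myosins, 60% or more of them from 1 gene, and was not set to another class by its markers. That left 31539 Myh4-dominant, 2457 Myh1-dominant, 1993 Myh2-dominant and 494 Myh7-dominant nuclei. Class sums needed 20 nuclei in a library, which for Myh7 left Old replicate 1, Sedentary replicate 1 and Young replicate 2, and for Myh1 and Myh2 left all libraries but Running replicate 2. The classes were checked against fibre genes other than the myosin heavy chains: all 13 fast genes listed were higher and all 11 slow genes tested were lower in Myh4-dominant than in Myh7-dominant nuclei (Tnnt3 by 2.81 ± 0.21 SE and Atp2a2 by -6.07 ± 0.30 SE on the log2 scale). The classes were less distinct in the second set. There the 4 myosins made up 1.09% to 2.35% of UMIs in endothelial marker-positive nuclei and 1.11% to 1.84% in Myh4-dominant nuclei, against 0.161% to 0.301% and 0.396% to 0.784% in the 10x libraries. Fits of the differences between Myh4-dominant nuclei and the other classes in the 10x libraries alone are therefore given beside those of all libraries for the 8 regulators. Pairs of 10x libraries shared 30 to 46 cell barcodes.

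Maf differed most between the nuclei classes of the 8 regulators. Levels are given as CPM, a gene's UMIs divided by all UMIs of the nuclei class and multiplied by 1000000, which is not corrected for gene length. In the 10x libraries Maf in Myh4-dominant nuclei came to 850.3 CPM (Old), 2215 (Young), 1183 (Running) and 889.8 (Sedentary). In Myh2-dominant nuclei it was at 103, 294, 261 and 224, and in Myh7-dominant nuclei at 80.01 in Old and 101 in Sedentary. The ranges of these 3 classes did not overlap in these libraries. In Myh1-dominant nuclei Maf was at 202 CPM (Old), 1209 (Young), 638 (Running) and 453 (Sedentary), which overlapped the Myh4-dominant and Myh2-dominant ranges. In the second set Maf was at 371 to 843 CPM in Myh4-dominant nuclei and at 165 to 245 in Myh2-dominant nuclei, again without overlap. Maf was higher in Myh4-dominant than in Myh2-dominant nuclei by 2.38 ± 0.20 SE on the log2 scale (edgeR, adjusted p = 9.9e-12), higher in 7 of 7 libraries (mean of their log2 differences 2.05 ± 0.72 SD, two-sided exact sign-flip permutation p = 0.0156, the smallest that 7 libraries can give). The Maf difference from Myh7-dominant nuclei was 3.13 ± 0.31 SE (edgeR, adjusted p = 1.1e-09) and from Myh1-dominant nuclei 1.08 ± 0.18 SE (edgeR, adjusted p = 3.6e-05). Against Myh1, Maf was higher in 6 of 7 libraries (two-sided exact sign-flip permutation p = 0.0313). In Old replicate 2 it was at 371 CPM in Myh4-dominant and 437 in Myh1-dominant nuclei. The 10x libraries alone gave 2.56, 3.33 and 1.25 for the Myh2, Myh7 and Myh1 comparisons of Maf, and the second set alone 1.56, 1.78 and 0.46, the last of which did not pass the test (adjusted p = 0.46).

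**Figure D1:**
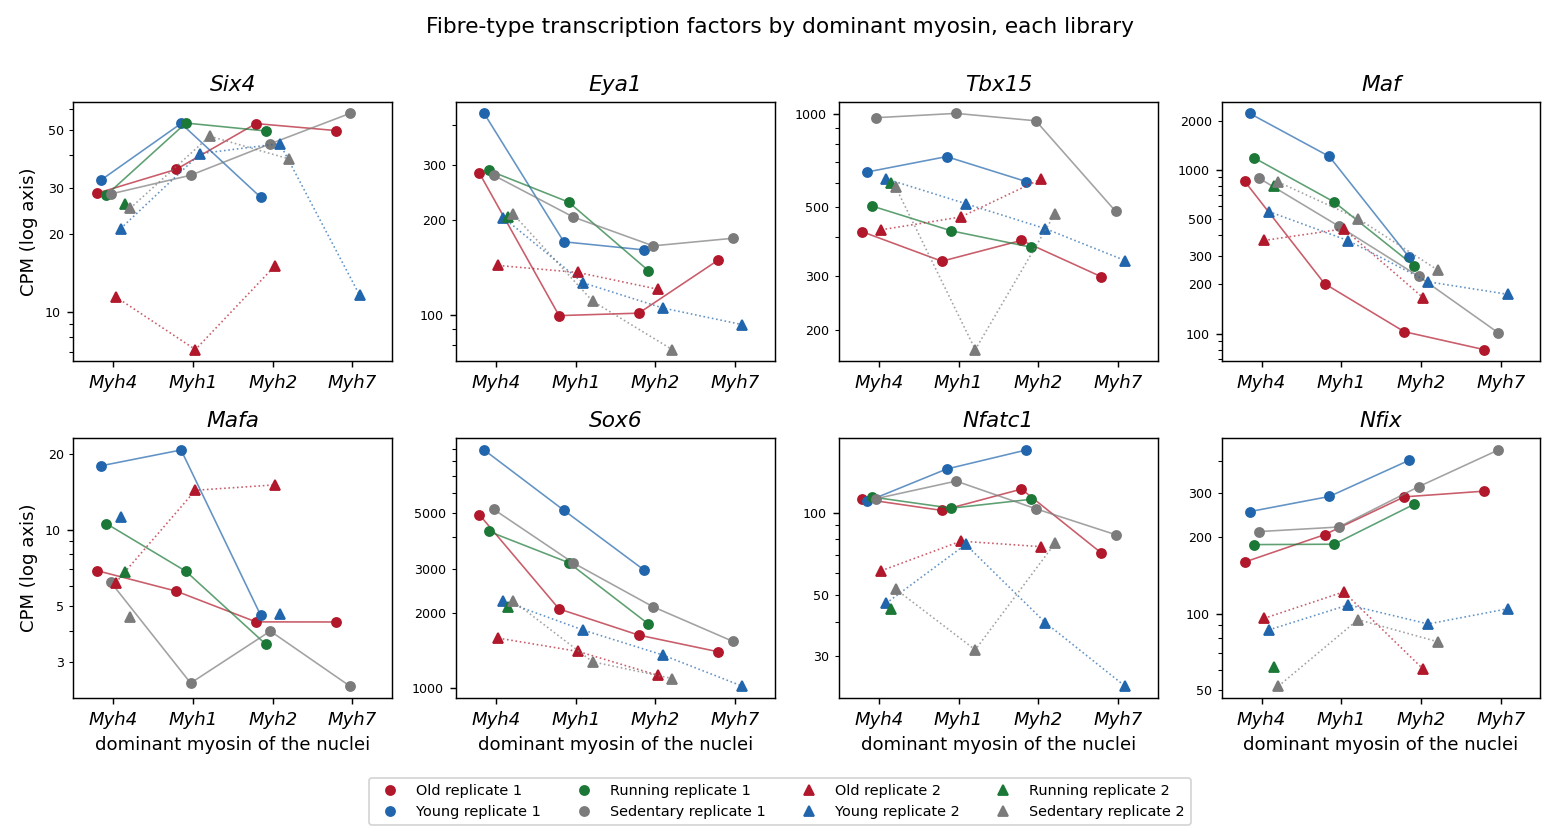
CPM of each regulator (log axis) by the dominant myosin of the nuclei, with 1 point for each library that had 20 or more nuclei of the class (circles 10x, triangles second set; lines join classes of a library and sums with 0 UMIs are not drawn). Maf and Sox6 step down from Myh4-dominant to Myh2-dominant nuclei in all 7 libraries that had both.

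Sox6 was graded in the same order. Sox6 in Myh4-dominant nuclei was at 4911 CPM (Old), 8882 (Young), 4212 (Running) and 5158 (Sedentary) in the 10x libraries. In Myh1-dominant nuclei it was at 2072, 5115, 3166 and 3155, in Myh2-dominant nuclei at 1630.3, 2969.9, 1806 and 2113, and in Myh7-dominant nuclei at 1399 in Old and 1540.1 in Sedentary. Within every 10x library the order was Myh4, Myh1, Myh2 and, where measured, Myh7. In the second set the Sox6 level was 1585 to 2233 CPM in Myh4-dominant and 1095 to 1359 in Myh2-dominant nuclei. Sox6 was higher in Myh4-dominant nuclei than in Myh7-dominant by 1.88 ± 0.21 SE, than in Myh2-dominant by 1.41 ± 0.14 SE and than in Myh1-dominant nuclei by 0.85 ± 0.14 SE on the log2 scale (edgeR, adjusted p = 1.1e-08, 8.9e-10 and 2.7e-05). It was higher than in Myh2-dominant and than in Myh1-dominant nuclei in 7 of 7 libraries (two-sided exact sign-flip permutation p = 0.0156 for each). The 10x libraries alone gave 1.83, 1.502 and 0.85 for Sox6, and the second set alone 1.33, 0.88 and 0.55, the last of which did not pass (adjusted p = 0.21). After every nucleus was thinned to 500 UMIs, 79.9% to 97.1% of the Myh4-dominant nuclei of the 10x libraries had a Sox6 UMI, against 46.2% and 48.4% of Myh7-dominant and 34.5% to 50.2% of adipocyte marker-positive nuclei. The Sox6 share in Myh7-dominant nuclei thus lay within the adipocyte range.

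Eya1, the cofactor of Six4 and its relatives, was also higher in Myh4-dominant nuclei. Its level in the 10x libraries was 282 CPM (Old), 437 (Young), 287 (Running) and 278 (Sedentary) in Myh4-dominant nuclei, and 101, 161, 138 and 165 in Myh2-dominant nuclei, without overlap. In Myh7-dominant nuclei it was at 149 in Old and 175 in Sedentary, above the Myh2-dominant level of the same library in both. The Eya1 differences were 1.32 ± 0.16 SE against Myh2, 1.13 ± 0.23 SE against Myh7 and 0.96 ± 0.16 SE against Myh1 on the log2 scale (edgeR, adjusted p = 6.0e-08, 4.0e-04 and 2.8e-05), with 7 of 7 libraries higher against Myh2 (two-sided exact sign-flip permutation p = 0.0156). The 10x libraries alone gave 1.25, 0.93 and 0.92, all of which passed. The Eya1 call against Myh7 was lost at 500 UMIs (0.85, adjusted p = 0.055), and the second set alone gave 1.23 against Myh7 and 0.63 against Myh1, neither of which passed (edgeR, adjusted p = 0.25 and 0.42).

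Six4 itself went the other way. Its level in the 10x libraries was 28.1 to 32.2 CPM in Myh4-dominant nuclei, 33.5 to 53.2 in Myh1-dominant, 27.5 to 52.9 in Myh2-dominant and 49.7 and 57.9 in Myh7-dominant nuclei. The Myh4 and Myh7 ranges did not overlap, whereas Young replicate 1 had 6 Six4 UMIs in Myh2-dominant nuclei and fell below the Myh4 range. Six4 was lower in Myh4-dominant than in Myh2-dominant nuclei by -0.55 ± 0.19 SE on the log2 scale (edgeR, adjusted p = 0.024), lower in 6 of 7 libraries (two-sided exact sign-flip permutation p = 0.0313). In the 10x libraries alone it was -0.67 (adjusted p = 0.0029). The Six4 call in all libraries was lost without any of Old, Running or Sedentary replicate 1 (log2 differences -0.51, -0.55 and -0.49, adjusted p = 0.12, 0.068 and 0.17), with nuclei thinned to 500 UMIs (-0.85, adjusted p = 0.055), in the second set alone (-0.76, adjusted p = 0.59) and with no filter on low counts (-0.34, adjusted p = 0.24). Against Myh7 (-0.62 ± 0.27 SE, adjusted p = 0.11) and Myh1 (-0.42 ± 0.18 SE, adjusted p = 0.13) Six4 did not pass in all libraries, and it passed in the 10x libraries alone (edgeR, -0.91, adjusted p = 0.0089, and -0.52, adjusted p = 0.019). In the second set the Myh7-dominant sum of Young replicate 2 held 1 Six4 UMI.

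Tbx15, Mafa, Nfatc1 and Nfix differed less or rested on fewer molecules. Tbx15 was at 417 CPM (Old), 650.3 (Young), 506 (Running) and 975 (Sedentary) in the Myh4-dominant nuclei of the 10x libraries, and at 298 and 486 in the Myh7-dominant nuclei of Old and Sedentary. Tbx15 was higher than in Myh7-dominant nuclei by 1.13 ± 0.22 SE on the log2 scale (edgeR, adjusted p = 1.4e-04), the 10x libraries alone gave 0.90 (adjusted p = 3.0e-04) and the second set alone 0.97 (adjusted p = 0.16). Against Myh2 the Tbx15 difference was 0.41 ± 0.15 SE (edgeR, adjusted p = 0.032). Its level was higher in 6 of 7 libraries (mean of the log2 differences 0.13 ± 0.36 SD, two-sided exact sign-flip permutation p = 0.34). The edgeR call was lost in the 10x libraries alone (0.23, adjusted p = 0.14), at 500 UMIs (0.16, adjusted p = 0.52) and in the second set alone (0.30, adjusted p = 0.61). It was also lost under 2 other ways of setting the classes (0.34 and 0.36, adjusted p = 0.094 and 0.087) and without Old, Running or Young replicate 1 or Young replicate 2 (0.34 to 0.40, adjusted p = 0.082 to 0.17). Against Myh1 Tbx15 did not pass (0.39 ± 0.14 SE, edgeR, adjusted p = 0.068), nor in the 10x libraries alone (0.15, adjusted p = 0.43), and it passed with no filter on low counts (0.56, adjusted p = 0.0071). The sedentary 10x library stood above the other 7 in Tbx15 in Myh4-dominant nuclei (975 against 417 to 650.3), and it was also the highest in its Myh1-dominant and Myh2-dominant nuclei (1007 and 952).

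Mafa was sparse, with 57 to 438 UMIs in Myh4-dominant nuclei of each 10x library and 1 to 9 in Myh2-dominant nuclei. The Mafa levels of the 10x libraries were 6.199 to 17.9 CPM in the first and 3.54 to 4.59 in the second, without overlap. Mafa was higher against Myh2 by 1.08 ± 0.33 SE on the log2 scale (edgeR, adjusted p = 0.014), and its level was higher in 6 of 7 libraries. In Old replicate 2 Mafa was at 6.19 CPM in Myh4-dominant and 15.0 in Myh2-dominant nuclei. Its log2 differences within libraries were positive in 5 and negative in 2 (mean 0.37 ± 1.15 SD, two-sided exact sign-flip permutation p = 0.39). The other negative one, -0.47, was of Sedentary replicate 2, with 0 CPM in Myh2-dominant nuclei. The edgeR fit of the 10x libraries alone gave 0.96 for Mafa (adjusted p = 0.023). The Mafa call was lost without Old, Running or Young replicate 1 (1.14, 0.93 and 0.93, edgeR, adjusted p = 0.056, 0.092 and 0.070). With nuclei thinned to 500 UMIs and in the second set alone Mafa gave no value. Against Myh7 and Myh1 the Mafa differences were 1.44 ± 0.67 SE and 0.64 ± 0.28 SE (edgeR, adjusted p = 0.13 and 0.14), and 1.11 and 0.51 in the 10x libraries alone (adjusted p = 0.24 and 0.16).

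Nfatc1 was level across the fast classes, at 110.0 to 114 CPM in the Myh4-dominant, 102 to 145 in the Myh1-dominant and 104 to 170 in the Myh2-dominant nuclei of the 10x libraries, and lower in Myh7-dominant nuclei at 71.4 in Old and 83.2 in Sedentary. The Nfatc1 difference between Myh4-dominant and Myh7-dominant nuclei was 0.80 ± 0.22 SE on the log2 scale (edgeR, adjusted p = 0.0067), and it passed in the 10x libraries alone (0.60, adjusted p = 0.019). It did not pass without Old replicate 1 or Sedentary replicate 1 (0.64 and 1.004, adjusted p = 0.18 and 0.058) or in the second set alone (1.15, adjusted p = 0.64). Its differences from Myh2 and Myh1 were 0.10 ± 0.14 SE and 0.03 ± 0.14 SE (edgeR, adjusted p = 0.66 and 0.92), and -0.035 and -0.023 in the 10x libraries alone (adjusted p = 0.87 and 0.94).

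Nfix had the reverse gradient in the 10x libraries. It was at 160 CPM (Old), 253 (Young), 187 (Running) and 211 (Sedentary) in Myh4-dominant nuclei, at 289.5, 404, 270.2 and 318 in Myh2-dominant nuclei, and at 305 and 444 in the Myh7-dominant nuclei of Old and Sedentary. Each library had less Nfix in Myh4-dominant than in Myh2-dominant nuclei. In the second set Nfix was at 51.6 to 95.7 CPM in Myh4-dominant and 60.2 to 90.9 in Myh2-dominant nuclei, so the classes overlapped there. Nfix was lower in Myh4-dominant than in Myh7-dominant nuclei by -0.56 ± 0.19 SE on the log2 scale (edgeR, adjusted p = 0.036), and by -0.88 in the 10x libraries alone (adjusted p = 3.8e-05). The call in all libraries was lost without Old or Sedentary replicate 1 (-0.68 and -0.27, adjusted p = 0.063 and 0.63), at 500 UMIs (-0.65, adjusted p = 0.13), in the second set alone (-0.15, adjusted p = 0.93) and with no filter on low counts (-0.27, adjusted p = 0.44). Against Myh2 it did not pass in all libraries (-0.31 ± 0.14 SE, adjusted p = 0.10) and passed in the 10x libraries alone (-0.59 ± 0.10 SE, adjusted p = 8.9e-05). In the second set alone the Nfix difference from Myh2 was 0.04 ± 0.34 SE. Against Myh1 the fitted Nfix difference was -0.01 ± 0.14 SE (edgeR, adjusted p = 0.99), and -0.08 in the 10x libraries alone (adjusted p = 0.64). Its level was lower in Myh4-dominant than in Myh1-dominant nuclei in 7 of 7 libraries (mean of the log2 differences -0.34 ± 0.32 SD, two-sided exact sign-flip permutation p = 0.0156).

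**Figure D2:**
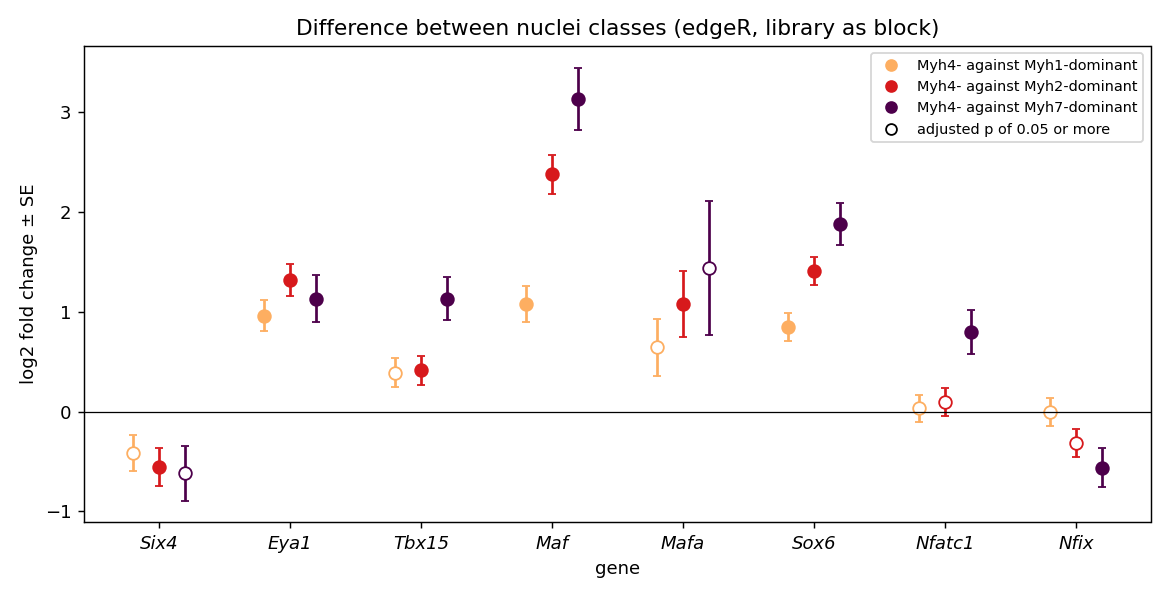
Log2 fold change of each regulator in Myh4-dominant nuclei against Myh1-, Myh2- and Myh7-dominant nuclei (vertical axis, with SE bars; filled where the adjusted p was under 0.05). Maf has the largest differences, 1.08, 2.38 and 3.13, whereas Six4 and Nfix lie below 0 in all 3, of which Nfix against Myh1, at -0.01, changed sign under 5 alternatives although Nfix levels were lower in 7 of 7 libraries.

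In counts, 5 of the 8 regulators were higher and 1 was lower in Myh4-dominant than in Myh7-dominant nuclei, where 12.6% and 7.66% of the 12769 genes tested were called in these directions. Against Myh2 it was 5 higher and 1 lower (16.9% and 9.5% of all genes), and against Myh1 3 higher and 0 lower (9.11% and 5.24%). The median log2 difference of the 8 was 1.13, 0.75 and 0.52 in these comparisons, beside 0.24, 0.18 and 0.15 over all genes tested. In the 10x libraries alone 5 of the 8 were higher and 2 lower against Myh7, 4 and 2 against Myh2, and 3 and 1 against Myh1, with medians of 0.92, 0.60 and 0.33. There the median over all genes was 0.04, 0.01 and 0.02, and the calls among all genes were split 1412 higher to 1598 lower, 1989 to 2080 and 1180 to 1426, against 1605 to 978, 2164 to 1213 and 1163 to 669 in all libraries. The comparisons share the Myh4-dominant sums. Against Myh7 the fitted differences of Sox6, Eya1, Tbx15, Mafa and Nfatc1 lay above the log2 difference of each of the 3 libraries. The highest of these were 1.81, 1.05, 1.003, 1.05 and 0.69. The smallest sign-flip p that 3 libraries can give is 0.25.

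The neighbouring classes below Myh4 were compared after the values had been seen. Maf was higher in Myh1-dominant than in Myh2-dominant nuclei by 1.30 ± 0.20 SE on the log2 scale (edgeR, adjusted p = 7.0e-05) and Sox6 by 0.56 ± 0.14 SE (adjusted p = 0.018). The Sox6 call was lost in 6 alternatives, among them without Young, Running or Sedentary replicate 1 (0.47, 0.47 and 0.56, adjusted p = 0.082, 0.15 and 0.12). The Eya1 difference was 0.36 ± 0.18 SE (adjusted p = 0.38). The 10x libraries alone gave 1.31 for Maf and 0.65 for Sox6 (adjusted p = 9.3e-05 and 0.0017), and Nfix passed there as lower (-0.51, edgeR, adjusted p = 0.0047). In all libraries, 2 of the 8 were higher and 0 lower, where 1.5% and 1.53% of all genes were called. From Myh2 to Myh7 0 of the 8 were called in either direction (1.46% and 2.11% of all genes, edgeR; 4 of the 8 had an unadjusted p under 0.05), with differences of 0.76 ± 0.31 SE for Maf, 0.47 ± 0.20 SE for Sox6, 0.72 ± 0.21 SE for Tbx15 and 0.70 ± 0.22 SE for Nfatc1 (adjusted p = 0.23, 0.25, 0.054 and 0.079). Tbx15 passed in the 10x libraries alone (0.67, edgeR, adjusted p = 0.019).

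Of 40 other regulators of fibre type, 36 were tested between the classes. Against Myh2, 9 were higher and 10 lower in Myh4-dominant nuclei. The higher ones included Eya4, a relative of Eya1 (1.58 ± 0.15 SE on the log2 scale), the calcineurin subunits Ppp3ca (1.01 ± 0.13 SE) and Ppp3cb (0.79 ± 0.13 SE) and the myocyte enhancer factor Mef2a (0.70 ± 0.14 SE). The lower ones included the calcineurin regulator Rcan2 (-2.22 ± 0.24 SE) and the oestrogen-related receptors Esrrg (-2.32 ± 0.26 SE), Esrrb (-3.49 ± 0.39 SE) and Esrra (-1.05 ± 0.15 SE), which are known for driving oxidative genes. Against Myh7, 9 were higher and 9 lower, with Eya4 (2.22 ± 0.23 SE), Ppp3ca (1.504 ± 0.19 SE), Mef2a (1.21 ± 0.20 SE) and Nfia (0.87 ± 0.18 SE) among the higher and Prox1 (-5.48 ± 0.40 SE), Rcan2 (-2.60 ± 0.30 SE), Esrrb (-3.84 ± 0.50 SE) and Vgll2 (-2.31 ± 0.31 SE) among the lower. Against Myh1, 5 were higher and 7 lower, with Eya4 (1.07 ± 0.15 SE) and Esrrg (-1.94 ± 0.26 SE) at the head of each. These values are of all libraries. The median log2 difference of the 36 was -0.06, 0.10 and 0.04 against Myh2, Myh7 and Myh1.

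The 3 genes most like each regulator were taken over the 14 sums of a 10x library and a dominant myosin, after each library's mean was removed, among 6209 or 6210 genes. For Maf they were Rc3h1, Acsl6 and Pgm1 (Pearson r 0.993, 0.992 and 0.989) and for Sox6 Klhl31, Pgm1 and Nt5dc3 (0.992, 0.991 and 0.990). Those of Eya1 were Gm28375, Jpx and Sltm (0.977, 0.977 and 0.972), those of Tbx15 Nol7, Glul and Mylpf (0.936, 0.932 and 0.931), and those of Mafa Ap3d1, Tada2a and Pdcd11 (0.917, 0.917 and 0.916). Nfatc1 was most like Tnni2, Stx8 and Lyst (0.946, 0.906 and 0.900), Nfix most like Tcta, Dgke and Parp4 (0.975, 0.952 and 0.950), and Six4 most like Proser3, Togaram2 and Zfand1 (0.931, 0.927 and 0.890). Between the regulators themselves Maf and Sox6 were closest (0.988), and Maf and Nfix ran opposite (-0.884). The points share libraries and depth, so these values are a description.

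Outside the fibre nuclei the regulators lay at different levels in the classes set by markers of other cells, described here in the 10x libraries only. Maf was at 1008 to 1425 CPM in macrophage marker-positive, 524 to 1169 in lymphatic endothelial marker-positive and 850.3 to 2215 in Myh4-dominant nuclei, and at 185 to 358 in muscle stem cell marker-positive nuclei. Nfatc1 was at 109 to 366 in lymphatic endothelial marker-positive and 236 and 270.2 in B cell marker-positive nuclei, above its 110.0 to 114 in Myh4-dominant nuclei in all but 1 of these 6 sums. Nfix was at 494 and 953 in tenocyte marker-positive, 324 to 570.4 in fibro-adipogenic progenitor marker-positive and 322 to 543 in muscle stem cell marker-positive nuclei. Eya1 was at 172 to 315 in muscle stem cell marker-positive nuclei, beside 278 to 437 in Myh4-dominant nuclei. Sox6 was at 3225 to 5687 in mural marker-positive nuclei, in which the listed myonuclear markers made up 5.79% to 8.22% of UMIs, against 0.640% to 1.10% in adipocyte marker-positive nuclei with Sox6 at 968 to 1800.0. The part of fibre RNA in these levels was not tested.

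**Figure D3:**
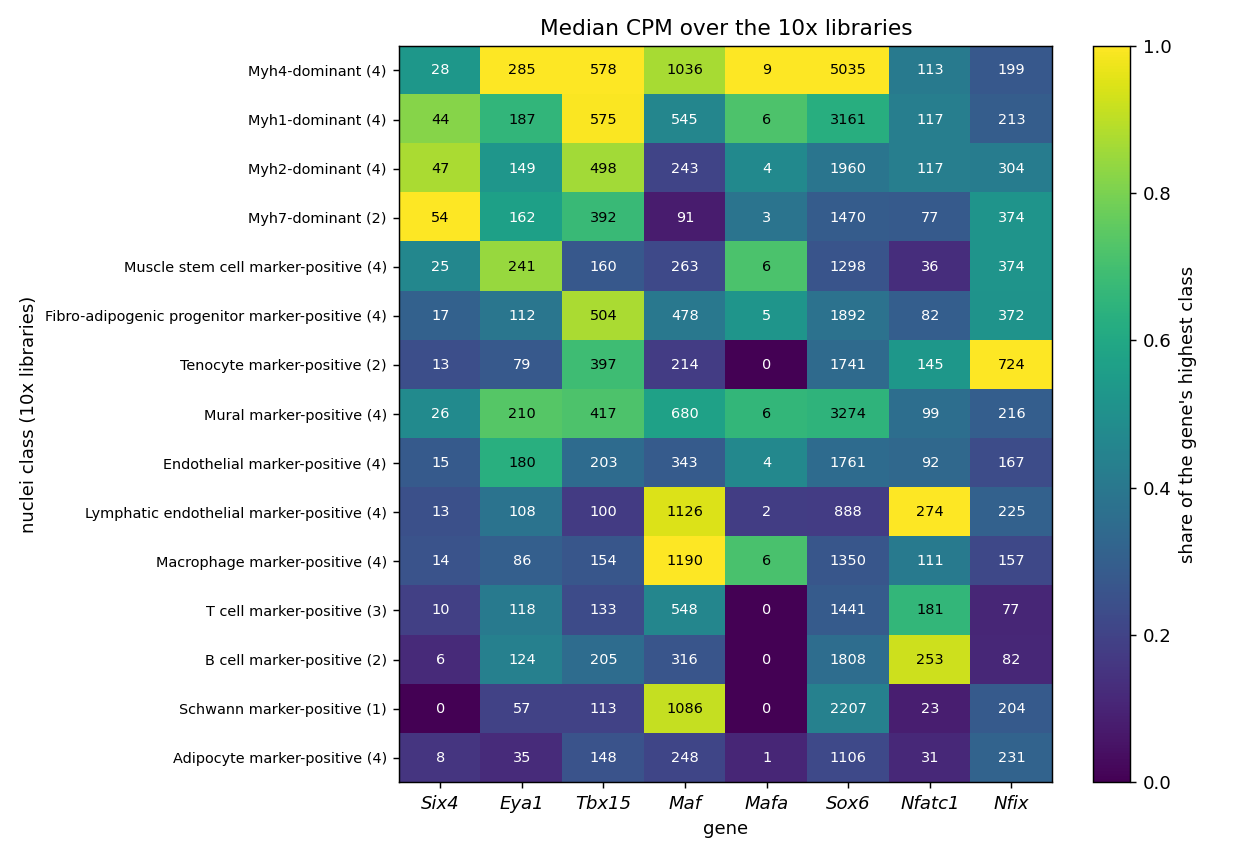
Median CPM over the 10x libraries for each regulator (columns) and nuclei class (rows, with the number of libraries that had 20 or more nuclei), coloured by the share of the gene's highest class. Sox6 and Eya1 peak in Myh4-dominant nuclei, at 5035 and 285, and Nfix in tenocyte marker-positive nuclei, at 724.

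None of the regulators was called between Old and Young, although most were lower in Old in both sets. In all nuclei, Maf was at 561 CPM in Old and 1634 in Young in the 10x set and at 308 and 468 in the second set. Sox6 was at 2965 and 6375 in the 10x set and at 1403 and 1942 in the second set. Tbx15 was at 346 and 571 and at 404 and 557, and Eya1 at 177 and 317 and at 143 and 182. Mafa was at 4.92 and 13.5 and at 5.25 and 9.33. Within each set the old library was thus the lower of the pair for these 5 genes, and for Six4 (24.2 and 25.5, 14.5 and 24.1), whereas for Nfatc1 and Nfix the second set went the other way (58.7 and 44.6, 103 and 89.1). The fitted log2 differences were -1.57 ± 0.61 SE for Maf, -1.56 ± 0.54 SE for Mafa, -1.22 ± 0.49 SE for Sox6, -1.01 ± 0.39 SE for Eya1, -1.004 ± 0.38 SE for Tbx15, -0.74 ± 0.46 SE for Six4, -0.52 ± 0.33 SE for Nfix and -0.28 ± 0.34 SE for Nfatc1 (edgeR, adjusted p from 0.69 to 0.73). Each lay below the CPM difference of either set, which for Sox6 was -1.10 (10x) and -0.47 (second set) on the log2 scale. Leaving out 1 library moved Maf from -2.19 (without Young replicate 2) to -0.64 (without Young replicate 1), Sox6 from -1.62 to -0.75 (without the same libraries) and Six4 from -1.45 (without Old replicate 1) to -0.25 (without Old replicate 2), all still below 0. The test called 0 of 8, as it did 0 of 20319 genes (0%), with 5 of the 8 and 557 of all genes at an unadjusted p under 0.05 and 0 called by DESeq2. With 3 residual degrees of freedom this comparison detected 5 of 100 genes simulated at 4-fold, so a miss does not show that levels were alike. The median of the 8 was -1.01, beside 0.19 over all genes. It was -0.47 in 40 other regulators of fibre type, of which 34 lay below 0. In the 13 fast fibre genes it was -1.08, with 13 below 0, and in the 12 slow fibre genes 0.19, with 5 below 0.

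Myh4-dominant nuclei made up 27.5% of nuclei in Old and 58.3% in Young in the 10x set and 42.3% and 62.4% in the second set. In the second set 31.3% of old and 0.0887% of young nuclei had too few myosin UMIs (median UMIs of all nuclei 915 and 1658), and with a limit of 2 myosin UMIs the Myh4-dominant shares there were 58.2% and 62.5%. In the 10x set the share of fibro-adipogenic progenitor marker-positive nuclei was 42.0% (Old) and 21.4% (Young). Their part in the differences was not tested. Fewer such nuclei and less RNA per nucleus cannot be told apart in sums over all nuclei, so the groups were also compared within Myh4-dominant nuclei. There Sox6 was at 4911 CPM in Old and 8882 in Young (10x) and at 1585 and 2227 (second set), and Maf at 850.3 and 2215 and at 371 and 557. Tbx15 was at 417 and 650.3 and at 423 and 619, Eya1 at 282 and 437 and at 143 and 204, Mafa at 6.90 and 17.9 and at 6.19 and 11.3, and Six4 at 28.5 and 32.2 and at 11.4 and 20.9. Old was the lower of the pair in both sets for these 6 genes. The other fast classes shared this only in part in the second set, where Sox6 and Six4 were lower in Old in both and Eya1 and Mafa higher in both. There 3 of the regulators were lower and 4 higher in Old in Myh1-dominant nuclei, and 4 and 4 in Myh2-dominant nuclei. The count for Myh1 leaves out Mafa, which was at 14.3 CPM in Old and 0 in Young and so had no log2 difference. In the 10x set 8 and 7 of the 8 were lower in these classes. The share of all genes lower in both sets was not counted. In Myh4-dominant nuclei the young 10x library stood above the other 10x libraries in Maf (2215 against 850.3 to 1183) and Sox6 (8882 against 4212 to 5158). Nfix was lower in Old in the 10x set (160 and 253) and higher in the second set (95.7 and 86.1), and Nfatc1 was higher in both (113 and 110.0, 61.4 and 46.6). The fitted log2 differences ran from -1.54 ± 0.47 SE for Mafa, with -1.48 ± 0.56 SE for Maf and -1.10 ± 0.48 SE for Sox6, to -0.20 ± 0.30 SE for Nfatc1 (edgeR, adjusted p from 0.74 to 0.79). Leaving out 1 library moved Maf from -2.12 (without Young replicate 2) to -0.65 (without Young replicate 1), Sox6 from -1.63 (without Old replicate 1) to -0.70 (without Young replicate 1) and Six4 from -1.84 (without Old replicate 1) to -0.22 (without Old replicate 2). The test called 0 of 8 and 0 of 17857 genes (0%), with 4 of the 8 and 677 of all genes at an unadjusted p under 0.05. DESeq2 was not run there. The fitted Nfatc1 difference lay below 0 and its CPM were higher in Old. For Maf, Mafa, Sox6, Tbx15 and Eya1 the fitted difference lay further below 0 than the CPM difference of either set. By CPM, Sox6 differed by -0.85 (10x) and -0.49 (second set), beside -1.10 in the fit. Tbx15 differed by -0.64 and -0.55, beside -0.999 in the fit. For Six4 and Nfix the fit lay between the sets. Only the fit uses TMM scaling. Among the 13 fast fibre genes 13 had a negative difference (median -0.94), and 0 were called. Of the 40 other regulators 31 had a negative difference (median -0.42), and the median of the 8 was -0.98.

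**Figure D4:**
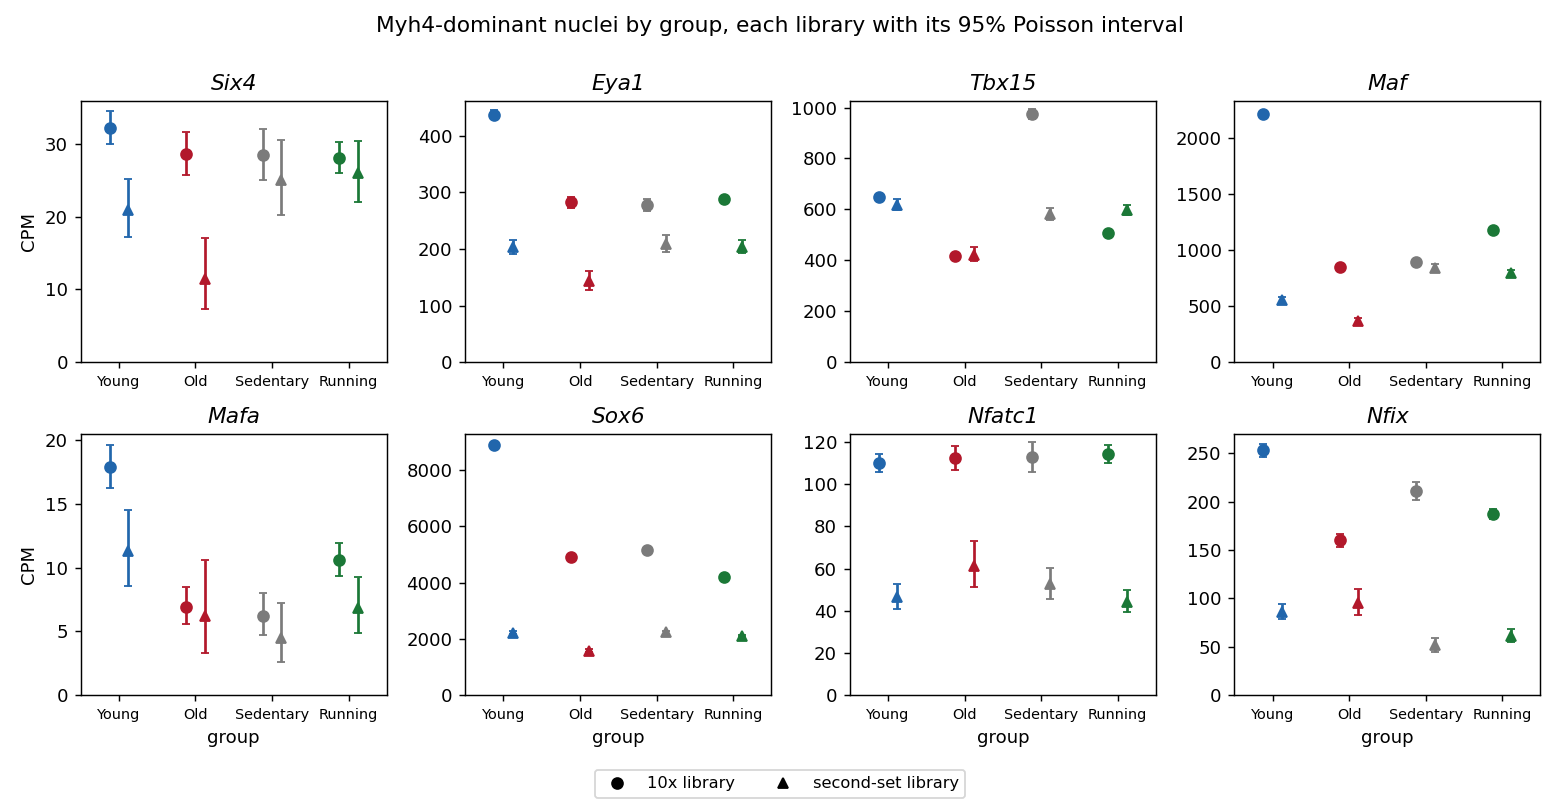
CPM in Myh4-dominant nuclei (linear axis from 0) by group, with 1 point for each library (circle 10x, triangle second set) and bars for its 95% Poisson interval, which covers counting error only. For Maf, Sox6, Tbx15, Eya1, Mafa and Six4 the old library lies below the young library of the same set, and for Tbx15 the sedentary 10x library lies above all others at 975.

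Running and Sedentary differed less. Maf in all nuclei was at 917 CPM in Running and 584 in Sedentary (10x) and at 755 and 774 (second set), so the sets went opposite ways. Sox6 was at 3263 and 3556 and at 2059.6 and 2097. Tbx15 was at 448 and 811 and at 578 and 562, a difference carried by the sedentary 10x library. Mafa was higher in Running in both sets (8.64 and 4.92, 6.17 and 4.72). The fitted log2 differences were 0.21 ± 0.59 SE for Maf, -0.06 ± 0.48 SE for Sox6, -0.37 ± 0.37 SE for Tbx15 and 0.62 ± 0.54 SE for Mafa, with Tbx15 and Mafa the lowest and the highest of the 8. In Myh4-dominant nuclei they were 0.05 ± 0.55, -0.21 ± 0.48, -0.50 ± 0.37 and 0.63 ± 0.47 (SE). The edgeR test called 0 of 8 in all nuclei and in Myh4-dominant nuclei, and 0 of all genes (0%) in both, with 0 of the 8 at an unadjusted p under 0.05. Of all genes, 98 and 96 were at such a p, and DESeq2 called 0 in all nuclei. Maf and Sox6 changed sign when single libraries were left out. The mix of nuclei also differed. Myh4-dominant nuclei made up 49.0% in Running and 29.7% in Sedentary (10x) and 87.2% and 80.6% (second set). In the 10x set 6.01% and 30.3% of nuclei had too few myosin UMIs. With a limit of 2 myosin UMIs the Myh4-dominant shares there were 51.9% and 39.9%. The part of this mix in the sums over all nuclei was not tested. Within Myh4-dominant nuclei Maf was at 1183 and 890 CPM (10x) and at 796 and 843 (second set).

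The size of the step from Myh2-dominant to Myh4-dominant nuclei was compared between groups by an interaction term. The age difference of this step was 0.22 ± 0.59 SE for Maf, -0.02 ± 0.55 SE for Sox6 and -0.10 ± 0.53 SE for Eya1 on the log2 scale, and the running difference 0.21 ± 0.67, -0.02 ± 0.66 and 0.04 ± 0.61 (SE). For age the test called 0 of 8 and 0 of 10447 genes (0%, edgeR; 0 of the 8 and 112 of all genes at an unadjusted p under 0.05). For running it called 0 of 8 and 1 gene (0.00957%), Fam155a, which is named because it was the only one and was chosen after its value was seen (-5.39 ± 0.91 SE, edgeR, adjusted p = 0.020). Running replicate 2 had 11 Myh2-dominant nuclei and was left out, so the Running step rests on 1 library that is assumed to vary like the other groups. The age test detected 0 of 100 genes simulated at 2-fold and 11 of 100 at 4-fold, so the steps were not shown to be alike.

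The 8 genes span lengths from 2.74 kb for Mafa to 568 kb for Sox6 in GENCODE vM21 on GRCm38. Six4 lies at chr12:73099609-73113456 (-), Eya1 at chr1:14168954-14310235 (-), Tbx15 at chr3:99240381-99354259 (+) and Maf at chr8:115682942-115707794 (-). Mafa lies at chr15:75745490-75748228 (-), Sox6 at chr7:115470872-116038796 (-) and Nfix at chr8:84699876-84800344 (-). Sums count whole genes, and the use of reads from introns is not given in the sources used here, so levels were compared within a gene and not between genes.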

How the data were processed

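The deposited files are 8 filtered matrices of unnormalized UMI counts, 1 for each library of mouse skeletal muscle, which the authors made with Cell Ranger 6.1.2 (10x) or PISA (second set), both on mm10, per the labels and the study's methods. The 21207 gene symbols named in all 8 files were used, without 12 mitochondrial and 88 ribosomal protein genes, as in the study. A nucleus was retained with over 200 genes, under 6000 genes and a mitochondrial share below 6%. Doublets stayed in, as no removal is stated, and an alternative left out the 6% of nuclei with the most UMIs. A nucleus with 3 or more UMIs from 2 or more markers of another cell type was set to that class.

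Nuclei are not replicates, so the sums of a library, or of its nuclei with a given dominant myosin, were the units. The test was that of edgeR 4.0.16 (R 4.3.3) by quasi-likelihood, after filterByExpr and with TMM normalization, and p-values were adjusted by Benjamini-Hochberg and called under 0.05. Classes were compared with library as a block (25 sums, 14 residual degrees of freedom), and groups with the library set as a term (8 libraries, 3 residual degrees of freedom). The 4 myosins were left out of the class tests. Levels (CPM) use the total of the class, log2 differences within a library had 0.5 UMIs added, and intervals cover counting error only. Fits were tested on simulated data: of 100 genes changed by 2-fold and 100 changed by 4-fold, 69 and 96 were recovered between Myh4-dominant and Myh2-dominant nuclei. Alternatives were DESeq2 1.42.0, its size factors, no low-count filter, other limits for the myosin classes, thinning to 500 UMIs, 1 library set and each library left out.

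The 8 genes and all lists were chosen with earlier results of these data known, and the comparisons of Myh1 with Myh2 and Myh2 with Myh7 were added after the data were seen. Named genes were the 8 members, up to 4 higher and 4 lower called of the other regulators with the smallest p, up to 2 of each fibre list, and the 3 genes most like each member with a mean log2 value of 4 or more. RefSeq promoter windows were matched by symbol.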

Additional observations from a re-analysis of the deposited data

How the results depend on the processing

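Over 20 alternative settings the 8 regulators gave 1310 values, of which 1171 kept their direction and side of the threshold, 38 lost a call, 15 gained one and 86 changed sign. Of the values called in the first place, 266 stayed called, 38 did not and 0 changed sign. The values that follow are of the comparisons and genes printed above, a choice made after the values were seen, and no cause was tested beyond fewer nuclei, UMIs or libraries where a setting leaves some out.

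Genes called fell with every nucleus thinned to 500 UMIs to 857 (Myh4 against Myh7), 1352 (Myh4 against Myh2), 740 (Myh4 against Myh1), 142 (Myh1 against Myh2) and 122 (Myh2 against Myh7), and in the second set alone to 369, 428, 110, 58 and 86. The 10x libraries alone called 777 between Myh1 and Myh2. With no low-count filter 2992 were called for Myh4 against Myh1 and 4 for the running difference. With only the 4 libraries of a comparison in the fit, Old against Young called 4 and Running against Sedentary 82 in all nuclei. Leaving out 1 library gave 0 to 8 for Old against Young and 0 to 418 for Running against Sedentary in all nuclei (418 without Sedentary replicate 2), and 0 to 2 and 0 to 10 in Myh4-dominant nuclei. It gave 0 to 41 for the age difference (41 without Old replicate 1) and 0 to 11 for the running difference (11 without Old replicate 1). Between classes it gave 1309 to 2619 (Myh4 against Myh7, 1450 without Old replicate 1 and 1309 without Sedentary replicate 1), 1192 to 2001 (Myh4 against Myh1, 1192 without Old replicate 1), 164 to 475 (Myh1 against Myh2, 164 without Sedentary replicate 1) and 157 to 488 (Myh2 against Myh7, 157 without Sedentary replicate 1 and 278 without Old replicate 1).

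Changes of sign were all of values not called. Nfatc1 against Myh1 was -0.023 in the 10x libraries, -0.17 at 500 UMIs, -0.032 with nuclei of other classes kept and -0.31 in the second set, and Nfatc1 against Myh2 was -0.035 in the 10x libraries. Nfix against Myh1 was 0.11 at a dominant share of 80% and 0.16 with no filter, and Nfix against Myh2 0.042 in the second set, where Six4 against Myh7 was 1.12. Sox6 between Running and Sedentary was 0.021 with only the 4 libraries, Maf in Myh4-dominant nuclei -0.0045 with nuclei of other classes kept, and the Eya1 running difference -0.016 with the size factors of DESeq2. Leaving out 1 library moved Nfatc1 against Myh1 from -0.053 to 0.11 and Nfix from -0.066 to 0.028. For Running against Sedentary it moved Maf from -0.47 to 1.29 (all nuclei) and -0.53 to 0.95 (Myh4-dominant), and Sox6 from -0.45 to 0.38 and -0.76 to 0.21. For the age difference it moved Eya1 from -0.76 to 0.27, Maf from -0.81 to 1.10 and Sox6 from -0.60 to 0.54, and for the running difference Eya1 from -0.54 to 0.30 and Sox6 from -0.080 to 0.033.

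The second set alone and the thinning to 500 UMIs gave no value for Mafa between the classes, and the running difference could not be estimated without Running replicate 1. Each library set holds 1 library of each group, and it stood as a term in each comparison of groups, which pairs them by set. Mafa and the Myh7-dominant sums rest on few UMIs.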
